A study of Rattus norvegicus with 2 samples.

Results

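The Golgi apparatus receives newly made glycoproteins from the endoplasmic reticulum (ER), and its enzymes trim, extend and cap their sugar chains on the way to the cell surface. N-glycans are assembled on a lipid carrier in the ER, transferred to the protein, trimmed by mannosidases and then rebuilt with branches, galactose, fucose and sialic acid, while O-linked chains and glycosaminoglycans are started and lengthened by separate enzyme families. Golgins and the conserved oligomeric Golgi (COG) complex hold the membranes and tether the vesicles that keep these enzymes in place. The values described here are circular RNAs (circRNAs), closed loops made by back-splicing of an exon end to an earlier exon start, from the genes of this machinery. The genes were taken by symbol alone, from families such as COG, GOLGA, GALNT, MGAT, MAN1 and MAN2, B4GALT, ST3GAL, FUT, ALG, EXT, CHSY, STT3, POMT and UGGT, together with GOLM1 and TMEM165. The rule found 154 circRNAs of 50 host genes, out of 17260 circRNAs and 4993 host genes in the table.

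In bone cancer pain rats, living cells of the rat breast carcinoma line Walker256, grown beforehand in the peritoneum of other rats, were put into the marrow cavity of the tibia. Control rats received Walker256 cells that had been boiled for 20 minutes, with the same surgery. Each group held 3 animals, kept for 21 days before they were killed. The material is labelled both as cancer cells and as cells of the spinal cord, and whether RNA of the animals was pooled is not stated in the sources used here. There was 1 library per group, so no test between the conditions was possible, and every ratio below compares 2 libraries.

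The bone cancer pain library held 151685 circular junction reads and the control library 159941. In rows that name a single gene, none of 12 neuronal markers had a circRNA. Of 10 oligodendrocyte and myelin markers MBP and MYRF did, with 5 bone cancer pain and 2 control reads together, and of 7 astrocyte markers GJA1, with 4 bone cancer pain reads. These counts have no background share of genes beside them, and which cells the libraries came from was not tested here. The identifiers are human: all 90 catalogued circRNAs of the set carry human circBase names (circBase is a catalogue of published circRNAs). Of the 50 hosts, 49 have a rat gene of the same symbol, and 3 of those lie on the same chromosome number in rat assembly GRCr8. The positions are not those of the rat build named in the submitters' processing notes: 538 circRNAs of the table, none of them of this set, lie on chromosomes 21 and 22, which the rat assembly lacks. Positions below are those of the table, which names no genome build, and the group names are those on the labels.

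The set as a whole took the same share of both libraries within counting error. Its circRNAs held 2868 bone cancer pain reads and 3046 control reads, which is 1.89% and 1.90% of all junction reads (ratio 0.99, exact 95% interval 0.94 to 1.05). Intervals here and below cover counting error only, and a lower value cannot separate fewer cells from less RNA per cell. Of the 154 circRNAs, 115 were listed in the bone cancer pain library, 104 in the control library and 65 in both (42.2%, 34.3 to 50.4, against 41.9% of all circRNAs). The 50 listed only for bone cancer pain and the 39 listed only for the control had a median of 3 reads each. The table's lowest listed value was 2 reads, so a circRNA that is not listed may still have had 1, and no fold is given against it.

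Reads were concentrated on a few junctions. The 10 circRNAs with the most reads held 67.7% of the set's bone cancer pain reads and 68.2% of its control reads, and 9 of these 10 lay within 2-fold. The 25 hosts with 20 or more reads held 97.0% and 97.1%. Of the 50 hosts, 35 had reads in both libraries, 7 in the bone cancer pain library only and 8 in the control library only. How many of all hosts had reads in a single library was not counted. A further 24 rows of the table name a gene of these families beside small RNAs and are not counted, with 55 bone cancer pain and 36 control reads. They hold 3 bone cancer pain reads each for MAN2B2, GALNT10 and GALNT1, the last also with 7 and 2 control reads on other junctions. They also hold 3 genes that have no row of their own (B4GALT1, GALNT13 and GOLGA5).

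**Figure D1:**
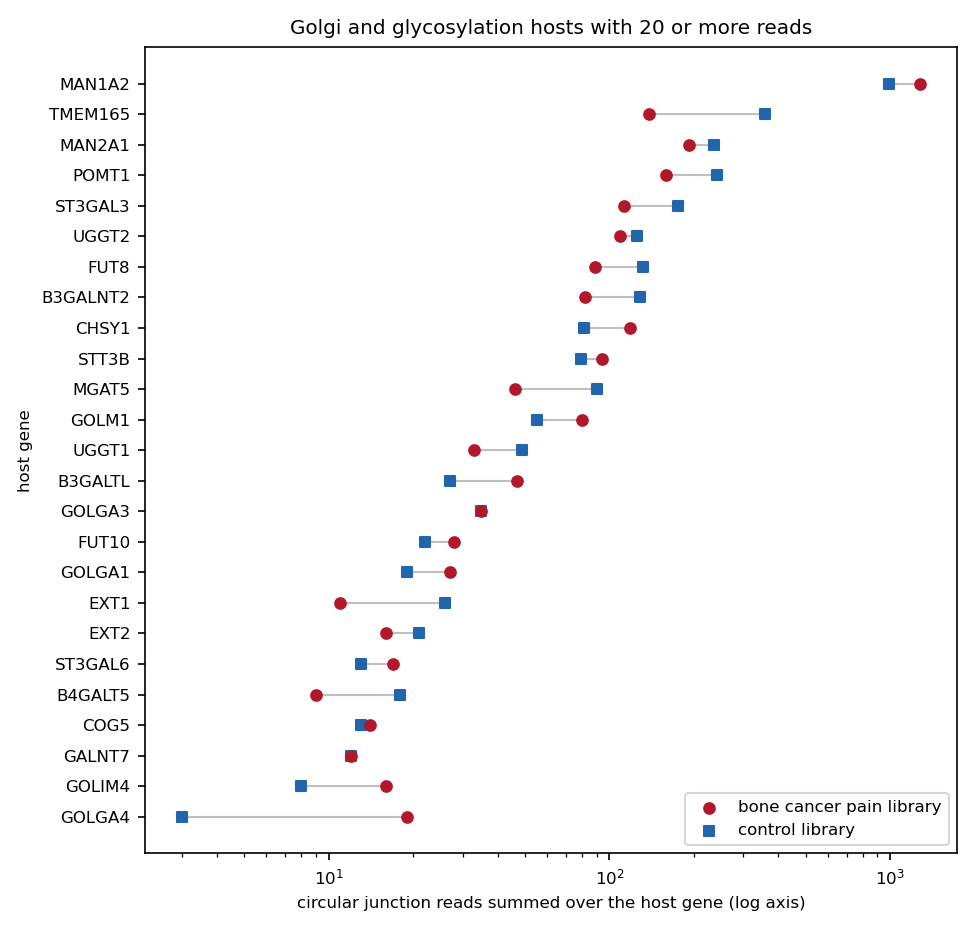
Circular junction reads summed over each host gene (log axis) for the 25 hosts with 20 or more reads, with circles for the bone cancer pain library and squares for the control library. MAN1A2 lies far to the right at 1278 and 993 reads, TMEM165 shows a wide gap with the control higher, and GOLGA4 at the bottom has 19 and 3 reads.

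Over all read levels together, the sizes of the differences were near those of the table as a whole. A circRNA or host was called higher or lower at a 2-fold ratio of library shares, with 0.5 reads added to each library, among those with 10 or more reads over both. Of the 55 circRNAs of the set with that many reads, 8 were higher in bone cancer pain (14.5%) and 9 lower (16.4%), against 17.3% and 17.0% of all 5415 circRNAs. The other 99 members had fewer than 10 reads. Of 31 hosts with 10 or more reads, 4 were higher (12.9%) and 4 lower (12.9%), against 13.3% and 14.2% of all 3038 hosts. The median log2 ratio was -0.04 over the 55 circRNAs and 0.08 over the 31 hosts, against -0.004 and -0.03 over all circRNAs and all hosts. These shares and medians do not set the genes of the Golgi apart from the rest of the table. Within read levels the share of circRNAs called either way was less alike. It was 36.8% of 19 members with 10 to under 20 reads, against 49.4% of all such circRNAs. It was 44.4% of 18 members with 20 to under 50 reads (against 28.1%) and 11.1% of 18 with 50 or more (against 14.3%).

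**Figure D2:**
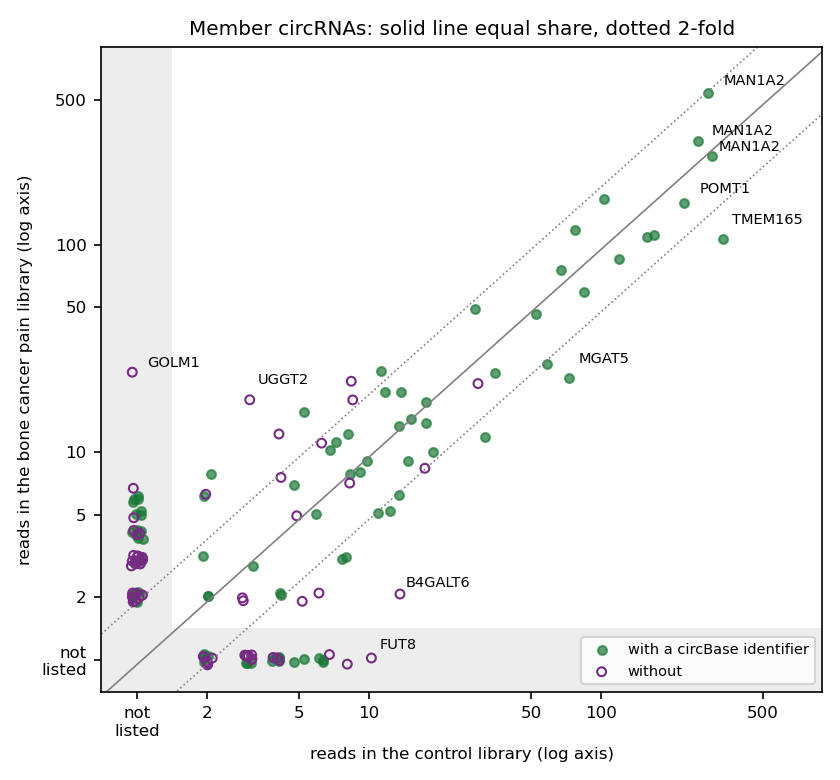
Reads of each of the 154 circRNAs in the bone cancer pain library (vertical) and the control library (horizontal), both on log axes with a small random offset of the points, the grey bands holding circRNAs not listed in that library. Most points with many reads lie between the dotted 2-fold lines; TMEM165 at 112 and 332 reads lies below them, and a GOLM1 circRNA with 23 bone cancer pain reads stands alone in the left band.

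Mannosidases, which remove mannose from N-glycans so that complex chains can be built, held the largest part of the reads. MAN1A2, a Golgi enzyme that trims the first mannoses, had 1278 bone cancer pain and 993 control reads (ratio 1.36, 1.25 to 1.48), the sixth most of any host in the table. MAN2A1, the Golgi mannosidase that acts after the first branch has been added, had 192 and 236 reads (0.86, 0.71 to 1.04), an interval that includes 1. MAN2B2, a mannosidase of the lysosome, was listed for the control library only among the rows counted, with 4 reads. The class summed to 1470 and 1233 reads (1.26, 1.16 to 1.36). Without MAN1A2 it turned to 192 and 240 reads (0.84, 0.69 to 1.02), so its direction rested on that gene.

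The MAN1A2 circRNAs differed among themselves, and the shortest of those with a common start had the lowest ratio. The gene had 10 listed circRNAs, all with circBase names, of which 5 began at the same position, 117944808 on chromosome 1, and ended at successively higher positions. The shortest, hsa_circ_0000116 (end 117948267, 3460 bp between the ends), had 252 bone cancer pain and 291 control reads (0.91, 0.77 to 1.08). hsa_circ_0000117 (end 117957453, 12646 bp) had 302 and 271 reads (1.18, 0.99 to 1.39). hsa_circ_0000118 (end 117963271, 18464 bp), the circRNA of the set with the most reads, had 527 and 305 (1.82, 1.58 to 2.10). The intervals of the shortest and of hsa_circ_0000118 do not overlap. hsa_circ_0000119 (end 117984947, 40140 bp) had 164 and 108 reads (1.60, 1.25 to 2.06), and hsa_circ_0000120 (end 118009049, 64242 bp) had 16 and 5 (3.37, 1.18 to 11.8). The MAN1A2 share on hsa_circ_0000118 was 41.2% in the bone cancer pain library (38.5 to 44.0), against 30.7% in the control library (27.9 to 33.7).

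**Figure D3:**
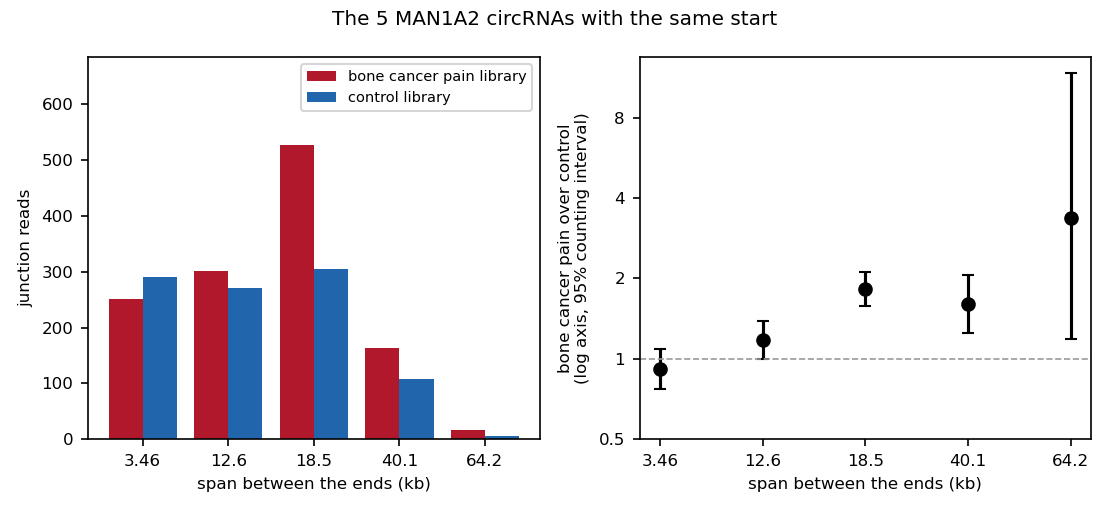
The 5 MAN1A2 circRNAs with the same start, ordered by span between the ends in kb: junction reads as bars for the bone cancer pain and control libraries (left) and the ratio of bone cancer pain to control on a log axis with exact 95% counting intervals (right). The ratio is 0.91 for the shortest circle and above 1.5 for the 3 longest.

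Golgins and other Golgi membrane proteins gave opposite directions within 1 class. TMEM165, a Golgi membrane protein needed for manganese supply to glycosyltransferases, had 138 bone cancer pain reads against 357 control reads (0.41, 0.33 to 0.50), the lowest ratio of any host of the set with 50 or more reads. Most of these lay on hsa_circ_0001414 (chromosome 4, 56277781 to 56284152), with 112 and 332 reads (0.36, 0.28 to 0.44). The other 6 TMEM165 circRNAs summed to 26 and 25 reads. Of these, 2 with 10 or more reads that share an end with it had ratios above 1, hsa_circ_0069776 with 12 and 8 reads (1.58, 0.59 to 4.46) and an uncatalogued one with 11 and 6 (1.93, 0.66 to 6.37), both intervals including 1.

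GOLM1, a Golgi membrane protein also known as a secreted serum marker of liver cancer, had 80 and 55 reads (1.53, 1.07 to 2.20). Its circRNAs did not move together. hsa_circ_0087400 (chromosome 9, 88655654 to 88667506) had 25 and 36 reads (0.73, 0.42 to 1.25), and an uncatalogued circRNA that starts at 88648197 and ends at 88661487 had 22 and 8 (2.90, 1.24 to 7.53). Another GOLM1 circRNA, from the same start to 88655783, had 23 bone cancer pain reads and was not listed in the control library, the most reads of any member listed in 1 library only. The share of GOLM1 reads on hsa_circ_0087400 was 31.2% in the bone cancer pain library (21.3 to 42.6), against 65.5% in the control library (51.4 to 77.8).

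GOLGA4, a golgin of the trans-Golgi, had 19 bone cancer pain and 3 control reads, spread over 6 uncatalogued circRNAs of which none was listed in both libraries, so no ratio is given. With 1 row that names it beside small RNAs, hsa_circ_0001282 with 7 and 5 reads, GOLGA4 had 26 and 8 (3.43, 1.51 to 8.76). That row was its only junction listed in both libraries, so this ratio rests mostly on junctions listed in 1 library only. GOLIM4, which cycles between Golgi and endosomes, had 16 and 8 reads (2.11, 0.85 to 5.69). GOLGA1 had 27 and 19 (1.5, 0.80 to 2.85), and its hsa_circ_0002883 had 24 and 12 (2.11, 1.01 to 4.63). GOLGA3 had 35 reads in each library (1.05, 0.64 to 1.73), with 18 in each on hsa_circ_0007438. GOLGA2, a golgin of the cis-Golgi, had 4 and 4, on different junctions. The class summed to 319 and 481 reads (0.70, 0.61 to 0.81). Without TMEM165 it was 181 and 124 (1.54, 1.22 to 1.95), the opposite direction.

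Genes of the COG complex had few reads. The 6 of them with a circRNA summed to 48 bone cancer pain and 29 control reads (1.75, 1.08 to 2.87). Of their 15 circRNAs, 14 were listed in the bone cancer pain library, 5 in the control library and 4 in both. Over all 17260 circRNAs, 12322 were listed in the bone cancer pain library, 12178 in the control library and 41.9% in both. COG5 had 14 and 13 reads (1.14, 0.50 to 2.62) and COG3 10 and 8 (1.32, 0.47 to 3.84). COG7 had 9 and 2 (4.74, 0.98 to 45.1), a 2-fold call whose interval includes 1. COG6 (8 reads) and COG2 (5 reads) were listed for bone cancer pain only, while COG1 had 2 and 6 reads on different junctions. Counting only the 4 circRNAs listed in both libraries, the sum turned to a ratio of 0.73.

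**Figure D4:**
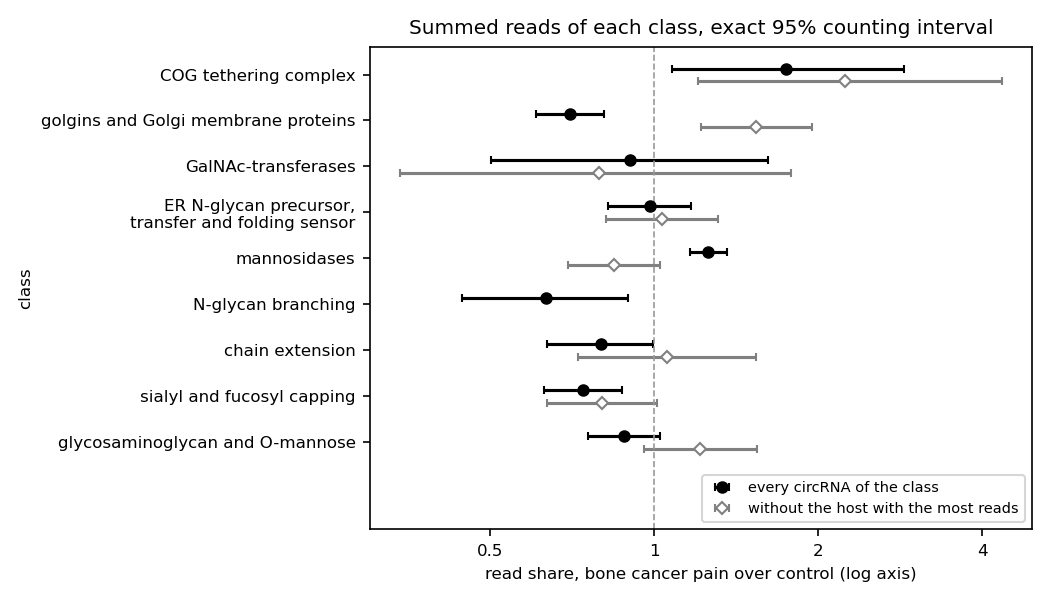
Ratio of summed read shares, bone cancer pain over control (log axis), for the 9 classes by role, with exact 95% counting intervals; filled circles hold every circRNA of the class and open diamonds leave out the host with the most reads (none for N-glycan branching, where no control reads remain). The golgin class moves across 1 without TMEM165, and the mannosidases without MAN1A2. Chain extension does so without B3GALNT2, and O-mannose and glycosaminoglycan enzymes without POMT1. The ER class goes from 0.98 to 1.03 without UGGT2, with intervals that include 1.

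The ER steps of the N-glycan pathway summed to 252 and 271 reads (0.98, 0.82 to 1.17). STT3B, a catalytic subunit of the enzyme that transfers the glycan to protein, had 94 and 79 reads (1.25, 0.92 to 1.71), and both of its circRNAs began at the same position and were listed in both libraries. Its alternative subunit STT3A had 2 and 4. UGGT1, the folding sensor that adds glucose back to misfolded glycoproteins, had 33 and 49 (0.71, 0.44 to 1.13), with hsa_circ_0008298 at 12 and 31 (0.41, 0.19 to 0.82). Its homologue UGGT2 had 109 and 125 (0.92, 0.70 to 1.20), but 2 of its circRNAs went opposite ways. hsa_circ_0008274 (chromosome 13, 96485181 to 96489456) had 56 and 86 reads (0.69, 0.48 to 0.97), whereas an uncatalogued circRNA from 96622366 to 96651561 had 19 and 3 (6.68, 1.97 to 35.2). ALG8, which adds glucose to the lipid-linked precursor, had 5 and 12 reads on 1 circRNA (0.44, 0.12 to 1.34). ALG9 (5 reads) and ALG1 (4 reads), mannosyltransferases of the same precursor, were listed for bone cancer pain only, and ALG3 (2 reads) for the control only.

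MGAT5, which adds a branch to N-glycans in the Golgi, had 46 bone cancer pain and 90 control reads (0.54, 0.37 to 0.78). The difference lay on hsa_circ_0008155 (chromosome 2, 135075100 to 135076310), with 24 and 72 reads (0.35, 0.21 to 0.56). A second circRNA, at lower coordinates, hsa_circ_0001068 (135010666 to 135012215), had 20 and 13 (1.62, 0.77 to 3.55). Its relatives MGAT5B (6 reads) and MGAT4B (2 reads) were listed for bone cancer pain only.

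Sialyl- and fucosyltransferases, which add sialic acid or fucose, summed to 247 and 352 reads (0.74, 0.63 to 0.87). ST3GAL3, a sialyltransferase, had 113 and 176 (0.68, 0.53 to 0.86), with 94.7% and 97.2% of these on hsa_circ_0006595, a short circle of 525 bp on chromosome 1. FUT8, which adds fucose to the N-glycan core, had 89 and 132 (0.71, 0.54 to 0.94). All 89 of its bone cancer pain reads in the rows counted lay on hsa_circ_0003028 (chromosome 14, 66028055 to 66028484, 430 bp), which had 117 control reads (0.80, 0.60 to 1.07). A longer FUT8 circRNA from the same start, spanning 68270 bp, had 10 control reads and was not listed in the bone cancer pain library. FUT10 had 28 and 22 reads (1.34, 0.74 to 2.46) and ST3GAL6, another sialyltransferase, 17 and 13 (1.38, 0.63 to 3.09). ST6GALNAC6 (5 reads), ST6GALNAC3 (2 reads) and ST3GAL5 (2 reads), the last the synthase of ganglioside GM3, were listed for the control only. Without ST3GAL3 the class had 134 and 176 reads (0.80, 0.64 to 1.01), an interval that includes 1.

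Enzymes that extend chains summed to 142 and 188 reads (0.80, 0.64 to 0.996). B3GALNT2, which lengthens O-mannose chains on dystroglycan, had the most circRNAs of any member, 12, all of which shared a start or an end with another. It had 82 and 128 reads (0.68, 0.51 to 0.90), with 27 and 57 on hsa_circ_0002343 (0.50, 0.30 to 0.80), which lay just outside the 2-fold call. One uncatalogued B3GALNT2 circRNA went the other way, with 12 and 4 reads (3.16, 0.96 to 13.5). B3GALTL, which adds glucose to fucose on thrombospondin repeats, had 47 and 27 on a single circRNA, hsa_circ_0002635 (1.84, 1.12 to 3.06). The lactosylceramide synthases B4GALT5 (9 and 18 reads; 0.53, 0.21 to 1.24) and B4GALT6 (2 and 13; 0.16, 0.018 to 0.72) both had fewer reads in the bone cancer pain library. B3GNTL1 had 2 reads in each, on different junctions. Without B3GALNT2 the class had 60 reads in each library (1.05, 0.72 to 1.53), so its direction rested on that gene.

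Enzymes of O-mannose and of glycosaminoglycans summed to 312 and 374 reads (0.88, 0.75 to 1.03). POMT1, which starts O-mannose chains in the ER, had a single circRNA, hsa_circ_0001897 (chromosome 9, 134381501 to 134381840, 340 bp), with 159 and 241 reads (0.70, 0.57 to 0.85). Its partner POMT2 had 3 control reads only. CHSY1, a chondroitin synthase, had 118 and 81 (1.54, 1.15 to 2.06), nearly all on hsa_circ_0005019 with 114 and 81 (1.48, 1.11 to 2.0). The heparan sulfate polymerase subunits EXT1 (11 and 26 reads; 0.45, 0.20 to 0.93) and EXT2 (16 and 21; 0.80, 0.39 to 1.62) both had fewer bone cancer pain reads, the second with an interval that includes 1. With 2 rows that name EXT1 beside small RNAs it had 21 and 26 reads (0.85, 0.46 to 1.57), which ends its 2-fold call. EXTL3, which starts heparan sulfate chains, had 8 and 2 reads (4.22, 0.84 to 40.8). Without POMT1 the class was at 1.21 (0.96 to 1.54).

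GalNAc-transferases, which start mucin-type O-glycans, had the fewest reads, 24 and 28 over 5 hosts (0.90, 0.50 to 1.62). GALNT7 had 12 in each library (1.05, 0.43 to 2.57) and GALNT2 10 and 6 (1.76, 0.58 to 5.88). GALNT8 (2 reads) was listed for bone cancer pain only, and, among the rows counted, GALNT10 (6 reads) and GALNT1 (4 reads) for the control only.

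Reads of a host were not always divided between its junctions in the same way in both libraries. Of 15 hosts with at least 2 circRNAs and 40 reads, the most-read circRNA held a smaller share in the bone cancer pain library for 11, a larger share for 3 and the same for 1. Among all 1368 hosts that met this rule the share was smaller in bone cancer pain for 55.5%. The intervals of the 2 libraries were apart for 5 of the 15 (33.3%), against 11.8% of all such hosts (a comparison that does not allow for how many reads each host had). With the rows that name a host beside small RNAs, they were apart for 3. These 5 were MAN1A2 and GOLM1, given above, TMEM165 (81.2%, 73.6 to 87.3, against 93.0%, 89.8 to 95.4), MGAT5 (52.2%, 36.9 to 67.1, against 80.0%, 70.2 to 87.7) and FUT8 (100%, 95.9 to 100, against 88.6%, 82.0 to 93.5). In 3 of them the share was smaller in bone cancer pain, and in MAN1A2 and FUT8 it was larger. With the rows just mentioned, the intervals overlapped for FUT8 (92.7%, 85.6 to 97.0, against 87.3%, 80.5 to 92.4) and, by a small margin, for MGAT5 (52.2%, 36.9 to 67.1, against 76.6%, 66.7 to 84.7).

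**Figure D5:**
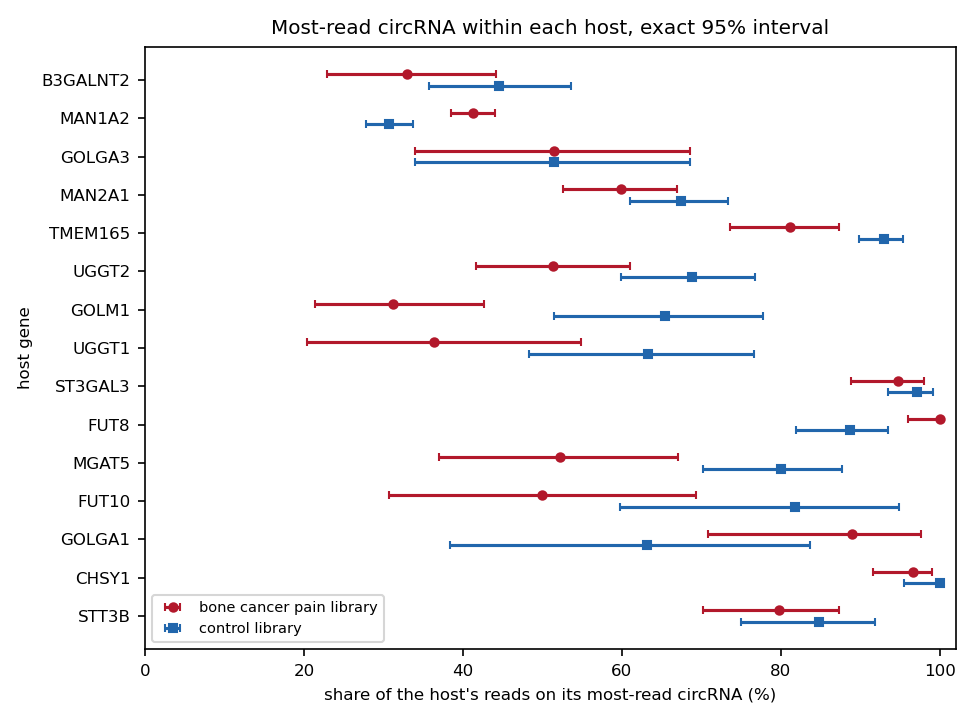
Share of each host's reads that lie on its most-read circRNA, in percent, for the 15 hosts with at least 2 circRNAs and 40 reads, with exact 95% binomial intervals; circles are the bone cancer pain library and squares the control library. The intervals are apart for MAN1A2, TMEM165, GOLM1, FUT8 and MGAT5, for example 31.2% and 65.5% for GOLM1; those of FUT8 and MGAT5 overlap once rows naming them beside small RNAs are added.

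The circRNAs of the set had a median span between their ends of 8321 bp, against 5765 bp over all circRNAs. Of 135 circRNAs in the 31 hosts with more than 1, 103 (76.3%) shared a start or an end with another circRNA of the host, against 71.3% over all hosts. Members with a circBase name made 58.4% of the circRNAs and 91.4% of the bone cancer pain and 93.4% of the control reads, against 54.0%, 79.9% and 82.4% over the whole table. Of the 64 uncatalogued members, 16 were listed in both libraries (25%), against 49 of the 90 catalogued (54.4%). Over all circRNAs these shares were close to the same, 24.3% and 57.0%.

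By span, members under 1000 bp held 518 bone cancer pain and 683 control reads (0.80, 0.71 to 0.90), and those of 15000 bp or more held 1015 and 733 (1.46, 1.33 to 1.61). Over all circRNAs the corresponding ratios were 0.97 (0.95 to 0.98) and 1.11 (1.09 to 1.13). Without MAN1A2, members of 15000 bp or more were at 293 and 302 reads (1.02, 0.87 to 1.21) and shorter ones at 1297 and 1751 (0.78, 0.73 to 0.84). Pairs of circRNAs of 1 host that shared an end and had 10 or more reads each were also compared. The longer had the higher ratio in 19 of 27 pairs in the set (70.4%), of which MAN1A2 gave 9 of 10. Without MAN1A2 it did so in 10 of 17 pairs (58.8%), near the 58.7% of 1943 pairs over all hosts. The pairs share circRNAs and are not independent, and the spans were compared after the values had been seen.

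Other genes of the same pathways, which the symbol rule does not take, were read from a list of 207 symbols that included older names. Of these, 67 had a circRNA and 43 had 10 or more reads, among which 6 were higher in bone cancer pain (14.0%), 8 lower (18.6%) and 29 between, against 13.3% and 14.2% of all hosts, with a median log2 ratio of -0.21. The most reads were on DHDDS, which makes the dolichol carrier of N-glycans (134 and 95; 1.49, 1.13 to 1.96), UGP2, which makes UDP-glucose (92 and 92; 1.05, 0.78 to 1.42), the ER chaperone calnexin, CANX (75 and 96; 0.82, 0.60 to 1.13), and PAPSS1, which makes the sulfate donor (89 and 69; 1.36, 0.98 to 1.89). Highest among those with 20 or more reads were CSGALNACT2, an enzyme of chondroitin synthesis (19 and 4, with no circRNA listed in both libraries), MGEA5, which removes O-GlcNAc from proteins (54 and 17; 3.35, 1.91 to 6.16), and GOLPH3, a peripheral Golgi protein (110 and 44; 2.64, 1.84 to 3.83). Lowest were NANS, a sialic acid synthase (4 and 22; 0.19, 0.048 to 0.56), GPR107, a membrane protein found in the Golgi (10 and 50; 0.21, 0.095 to 0.42), and LARGE, which extends the sugar chain of dystroglycan (6 and 17; 0.37, 0.12 to 0.99). Listed in both libraries were 1 of 10 circRNAs of MGEA5, 1 of 5 of GPR107 and 1 of 2 of NANS. The single circRNA of GOLPH3 and both of LARGE were listed in both.

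The members nearest to the 2-fold edge show how few reads set the call. A MAN2A1 circRNA with 18 bone cancer pain and 9 control reads and the GOLGA1 circRNA with 24 and 12 lay just inside the upper edge, and a FUT10 circRNA with 8 and 4 and a TMEM165 circRNA with 11 and 6 just outside it. At the lower edge, B4GALT5 (6 and 14) and ALG8 (5 and 12) were just inside, and COG5 (5 and 11) and B3GALNT2 (27 and 57) just outside. Of the 8 higher circRNAs, the interval excluded 1 for 5, and of the 9 lower ones also for 5. It excluded 1 as well for 9 of the 38 between. These interval counts were not made over all circRNAs, so how usual they are in the table is not known here.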

How the data were processed

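Circular junction reads of 2 libraries, 1 per group, were analysed. Per the submitters' processing notes, CASAVA 1.8, BWA and the build rn6 were used, with no role given; the circRNA caller is not given in the sources used here. Per the labels' protocols, ribosomal RNA was removed and linear RNA was digested (RNase R, 16 units, 37 °C, 15 minutes). The deposited values are headed TPM, but were treated as RPM, because 100% of the authors' values above the placeholder of 0.001 fell on a grid of whole reads (tolerance 0.01 reads), with the same step for circRNAs of every length. Reads are values divided by this step; the lowest listed value was 2, and the placeholder was taken as 0.

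Ratios are library shares with exact conditional binomial (Clopper-Pearson) 95% intervals; shares have exact binomial intervals. Called means 2-fold by size, not a test. No count model was fitted, as there were no replicates. Host sums used rows naming 1 host gene; 24 rows that name a member beside small RNAs were left out. Chromosome Y was left out. Named were all hosts with 20 or more reads, the 10 most-read circRNAs, the 8 highest and 8 lowest, those next to the 2-fold edge, and for the other pathway genes the 4 most-read, 3 highest and 3 lowest. Members, classes and lists were chosen with earlier results of these data known. Other scalings, minimums, reads added, folds and subsets of circRNAs were tried. The call was tried on simulated reads that held counting error only. Changes of 3-fold up and 5-fold down were put into circRNAs and hosts with 20 or more reads. Variation between animals or libraries was not simulated. Computing used scipy 1.17.1, numpy 2.4.6 and pandas 2.3.3 under Python 3.11.15, and figures matplotlib 3.10.9.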

Additional observations from a re-analysis of the deposited data

How the results depend on the processing

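No paired analysis was possible because each group had 1 library. The 25 hosts with 20 or more reads kept their side of the 2-fold call under median of ratios scaling (shift of -0.08 on the log2 scale) and TMM (0.002), except GOLIM4, whose log2 ratio was 0.96 under the first. Counts of circRNAs higher and lower (8 and 9) were 19 and 18 at a minimum of 5 reads, 59 and 49 with none and 17 and 15 at 1.5-fold; 4 were lower at a minimum of 20, 5 with 2 reads added, and 3 higher with circBase names only. Counts of hosts higher and lower (4 and 4) were 8 and 7 at a minimum of 5 reads, 2 and 2 at 20 and 11 and 13 with none. At 1.5-fold 8 were higher, and 8 were lower by an interval excluding 1. None of these alternative counts was made over all circRNAs or all hosts. With only circRNAs listed in both libraries, and with circBase names only, 1 host was higher in each case. Those subsets listed 65 and 65, and 72 and 67, circRNAs in the bone cancer pain and control libraries. The golgin class was at 0.59 and 0.54 in them, at 1.46 without its most-read circRNA and at 1.54 without TMEM165. COG genes were at 0.73 with circRNAs listed in both. Without the most-read circRNA, mannosidases were at 1.07, branching enzymes at 1.76 and O-mannose and glycosaminoglycan enzymes at 1.21; without the most-read host, mannosidases were at 0.84, chain extension at 1.05 and O-mannose and glycosaminoglycan enzymes at 1.21. Where a class changed direction without 1 host or circRNA, this follows from the make-up of the sum and gives no cause. The causes of these and the other changes were not tested. Adding the 24 rows left out, a setting chosen after seeing the data, moved no class ratio outside its interval and no count of calls by over 1.5 times. It took EXT1 inside 2-fold (log2 ratio -0.23) and left the share on the most-read circRNA apart for 3 hosts in place of 5. Hosts higher and lower were then 5 and 4, so hosts other than EXT1 also changed their call. The GalNAc-transferase class, whose interval includes 1, went from 0.90 to 1.11. Near the minimum of 10 reads, intervals are wide, as for EXTL3 (0.84 to 40.8).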
